A study of Homo sapiens with 8 samples.

Results

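CTCFL, CTCF and the genes of cohesin were described in the human embryonic stem cell line H1 after lentiviral knockdown of NAT10, the enzyme that places N4-acetylcytidine on RNA. The group holds the insulator paralogs CTCFL and CTCF, the cohesin ring subunits RAD21, SMC1A, SMC3, STAG1 and STAG2, the loader subunits NIPBL and MAU2, and the release factor WAPL. All 10 were among the 17546 genes of the table. The set was chosen from the measured values of this same comparison, in which CTCFL stood out. The members' changes are therefore given as a description, without p-values. For members, rose, fell and passed only say where a gene lay against the threshold used for all genes. Their intervals give the spread between libraries, and neither is a test of the set. The table holds 4 libraries from cells given a negative control shRNA and 4 from cells given an shRNA against NAT10. Both viruses carried GFP, and the NAT10 shRNA was cloned in the vector GV112. All cells were cultured for 48 h after transduction, enriched for GFP, and grown on in TeSR-E8 medium with puromycin at 0.5 ug/ml. One cell line was used, the labels name no rescue with NAT10, and they do not say whether replicates came from separate cultures, so the errors cover the spread between libraries, which may be technical.

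CTCF is a zinc-finger protein that binds DNA at insulators and at the borders of chromatin domains, where it halts cohesin. Cohesin is a ring of SMC1A, SMC3 and the kleisin RAD21, to which STAG1 or STAG2 is bound. The loader formed by NIPBL and MAU2 puts the ring on DNA, the ring extrudes loops and holds sister chromatids together, and WAPL opens it again. CTCFL, also called BORIS, shares the zinc fingers of CTCF but is normally made in male germ cells and in some tumours.

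Values are normalized counts, that is reads divided by the size factor of the library. Reads were 15.9 ± 0.227 M per library in controls and 16.3 ± 0.0402 M in knockdown (SD, n = 4), from 15574631 to 16305014. NAT10 was measured first, as a check of the labels. It had 2207, 2285, 2048 and 2173 normalized counts in the control libraries and 1647, 1592, 1625 and 1644 in the knockdown libraries. All knockdown libraries were below all controls, at a mean of 74.7% of control, so the comparison is one of a partial loss of the transcript (two-sided exact permutation p = 0.0286, the smallest that 4 against 4 libraries allow). Of all genes, 64.7% passed the test for a difference (limma on log2(value + 1), Benjamini-Hochberg adjusted p under 0.05), 32.3% higher and 32.4% lower in knockdown, and in 56.7% the groups did not overlap. With that share of genes changed, scaling matters: with library totals in place of the size factors, the whole distribution shifted down (median log2 change -0.11), with calls of 4079 higher and 7349 lower genes in place of 5667 and 5680.

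Cell type markers were counted in the same contrast, to stand beside the 64.7% of all genes that passed. Of 14 pluripotent stem cell markers measured, 10 rose and 0 fell, so that 71.4% passed. PRDM14 rose by 1.90, LIN28B by 0.80 and L1TD1 by 0.55 on the log2 scale. NANOG, POU5F1, DPPA4 and TERT did not pass. With library totals 9 rose and 3 fell. The summed level of the 14 ran from 118055 to 122091 in controls and from 149218 to 153739 in knockdown. DNMT3B had the highest level of the list, at 36393 ± 997 normalized counts in controls and 49902 ± 857 in knockdown. POU5F1, the defining factor of these cells, had 23.98 ± 5.63 and 17.2 ± 7.11 normalized counts (SD, n = 4); it has near-identical pseudogene copies, and the counting of shared reads is not given in the sources used here. Of 7 fibroblast markers measured COL1A1, COL1A2, PDGFRA, POSTN and TWIST1 rose and THY1 fell by 0.71, so that 85.7% passed. THY1 had the highest level of the list in controls, 12941 ± 342 against 7899 ± 260 normalized counts in knockdown. COL1A1 came next, at 6843 ± 230 and 10990 ± 648, and the sum given below mainly follows these genes. At 839 CPM in the H1 controls, THY1 is not read here as particular to fibroblasts. PDGFRA, POSTN and TWIST1 averaged 2.33, 3.59 and 1.37 CPM (reads of a gene scaled to a common library total). TWIST1 met the filter for inclusion (at least 10 reads in at least 4 libraries) only through the knockdown libraries. Its direction is therefore not free of the filter. With genes of at least 5 CPM 2 rose and 1 fell, and the median log2 change of the list was 0.058 in place of 0.68. The summed level of these 7 was 22086.9 to 22810.4 in controls and 20916 to 22542.3 in knockdown. Of 12 primordial germ cell markers listed 6 were measured, of which PDPN, TFAP2C and DAZL rose and KIT and CD38 fell. That is 83.3% of the 6 passing. CD38, at 20.1 ± 2.68 and 7.16 ± 1.68 normalized counts, met the filter only through the controls. The summed level went from between 3152 and 3296 to between 4418 and 4643. Most of that rise was PDPN, which went from 2188 ± 61.2 to 3439 ± 86.8. No measured marker was at 0 in any library, and DDX4, NANOS2 and NANOS3 were not analysed here. The part of cell makeup in the changes below was not tested, and in bulk RNA fewer cells of a type and less RNA per cell cannot be told apart.

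The 2 insulator genes differ in the DNA just before their starts, which is shown here because CTCF takes its name from the letters CCCTC. Each sequence is the 250 bases upstream of a RefSeq start (GRCh38.p14), read 5′ to 3′ on the strand of the gene, with CCCTC or its reverse complement GAGGG in capitals and no other motif searched. The CTCFL window is chr20:57525653-57525902 on the minus strand and the CTCF window is chr16:67562276-67562525 on the plus strand.
CTCFL: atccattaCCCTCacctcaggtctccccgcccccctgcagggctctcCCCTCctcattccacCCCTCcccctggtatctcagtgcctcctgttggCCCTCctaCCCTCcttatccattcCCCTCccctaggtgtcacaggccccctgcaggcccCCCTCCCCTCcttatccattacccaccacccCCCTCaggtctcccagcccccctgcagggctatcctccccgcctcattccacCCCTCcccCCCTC
CTCF: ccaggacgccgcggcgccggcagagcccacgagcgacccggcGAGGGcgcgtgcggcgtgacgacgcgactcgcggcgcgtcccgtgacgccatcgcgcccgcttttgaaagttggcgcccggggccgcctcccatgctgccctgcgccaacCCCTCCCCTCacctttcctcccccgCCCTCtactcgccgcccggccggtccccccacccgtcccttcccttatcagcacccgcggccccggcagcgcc
The CTCFL window held 11 such matches, a number reached by 0.131% of the 35116 upstream windows in the RefSeq table, and 2 CpG dinucleotides, a number reached by 85.3% of them. The CTCF window held 4 matches (9.47% of windows have as many) and 39 CpG (2.65% of windows). At the other 2 RefSeq starts of CTCFL the windows held 8 and 6 matches, with 7 and 15 CpG. Over all windows the medians were 1 match and 11 CpG, and 66.6% had at least 1 match. RefSeq windows were at hand for 9 members, 14 windows in all, and those outside CTCFL and CTCF held 0 to 4 matches and 13 to 39 CpG. A match of 5 letters is a description of the sequence, not a binding site, and no binding or methylation was measured.

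CTCFL (ENSG00000124092, chromosome 20, 57495966 to 57525652, minus strand, GRCh38) had 311, 352, 359 and 345 normalized counts in the control libraries and 31.9, 43.9, 40.6 and 42.1 in the knockdown libraries. The groups lay far apart, and the highest knockdown library stood at 43.9. The mean went from 342 ± 21.1 to 39.6 ± 5.31 (SD, n = 4), 11.6% of control, or 8.62-fold lower. CTCFL fell by 3.08 on the log2 scale (SE 0.105, 95% interval -3.29 to -2.87), and 5 of the 17546 genes fell by more. CTCF (chromosome 16, 67562407 to 67639185, plus strand) moved the other way. Its counts were 1708, 1687, 1613 and 1677 in controls and 2279, 2239, 2141 and 2209 in knockdown, with no overlap. CTCF rose by 0.41 (SE 0.0368), from 1671 ± 41.2 to 2217 ± 58.5. In GENCODE an antisense gene, ENSG00000237718, shares 13.03% of the exon bases of CTCF; it was not analysed here, and the strand setting of the counting is given in neither the labels nor the processing notes.

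The ratio of the paralogs within a library does not depend on the scaling. Per 100 reads of CTCF, the control libraries held 18.2, 20.9, 22.3 and 20.6 reads of CTCFL, and the knockdown libraries held 1.40, 1.96, 1.90 and 1.90. The mean ratio went from 20.5 ± 1.68 to 1.79 ± 0.262, 11.4-fold lower, with a fall in the one gene and a rise in the other both contributing. Leaving out any single library kept the log2 difference between -3.58 and -3.41.

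**Figure D1:**
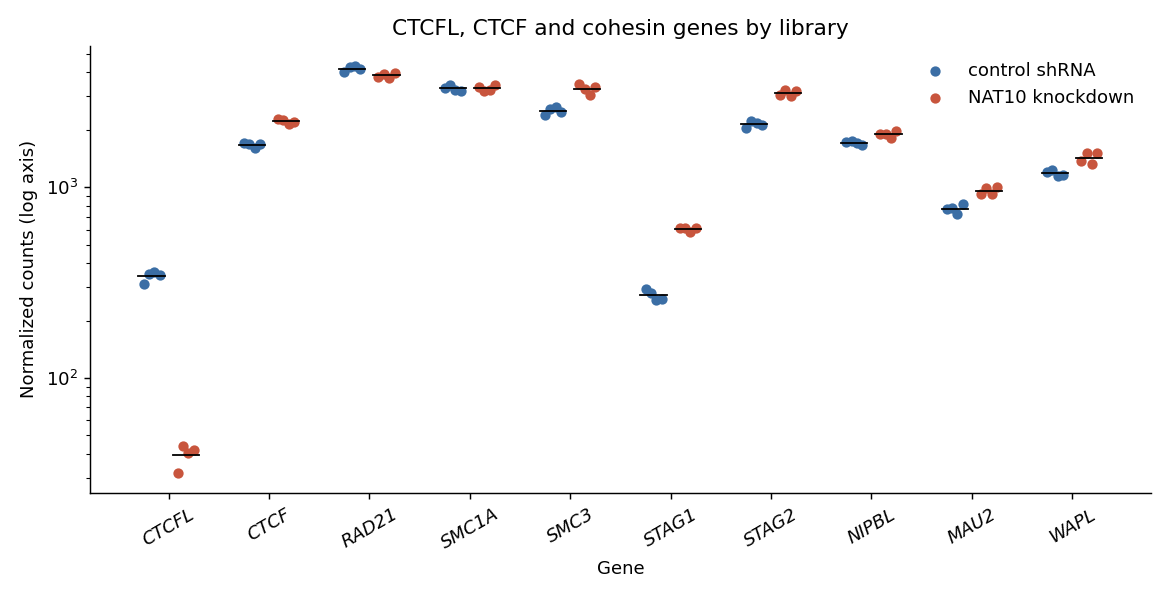
Normalized counts (log axis) of the 10 genes in each of 4 control and 4 NAT10 knockdown libraries; points are libraries and lines are group means. CTCFL lies between 311 and 359 in controls and between 31.9 and 43.9 in knockdown, while the groups overlap for SMC1A.

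The genes around CTCFL moved in both directions. Within 1 Mb of it 13 others were measured, of which 7 rose, 2 fell (BMP7 and PPP4R1L) and 4 did not pass, so that 69.2% passed against 64.7% of all genes, with a median log2 change of 0.14 against 0.0013 over all genes tested. With library totals 4 rose and 3 fell. The nearest on the lower side was HMGB1P1, a pseudogene of HMGB1 6.94 kb away, at 21.1 ± 5.91 and 17.1 ± 3.83 normalized counts (log2 change -0.27, limma adjusted p = 0.328), whose reads may be shared with its parent gene. RBM38, which encodes an RNA-binding protein, lies 86.6 kb away and rose by 0.43 (limma adjusted p = 5.72e-13), and its antisense gene RBM38-AS1 at 103 kb had a log2 change of 0.066 (limma adjusted p = 0.851). On the higher side PMEPA1, which encodes an inhibitor of TGF-beta signalling, lies 123 kb away and rose by 0.20 (limma adjusted p = 0.000150), a call lost with library totals (0.090, adjusted p = 0.0787). NKILA at 185 kb had a log2 change of -0.29 (limma adjusted p = 0.0910), and it passed with library totals and without control replicate 3. PPP4R1L at 703 kb fell by 0.26 (limma adjusted p = 0.00367). In the rest of the region genes were named after their values were seen. TFAP2C, a transcription factor of early germ cells, rose by 0.65 and RAE1, an mRNA export factor, by 0.52, while BMP7 fell by 0.46.

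In the next step 5 genes were named by their likeness to CTCFL, measured as the root mean square difference of log2(value + 1), each gene set to its own control mean, over the 8 libraries and among 11689 other genes averaging 5 CPM or more. They were MT1E (0.245), MT1H (0.252), ENSG00000279531 (0.419), MT1G (0.469) and MVP (0.472). MT1E, MT1H and MT1G encode metallothioneins, which bind zinc and copper and are near-identical paralogs that can share reads. MVP encodes the major vault protein. MT1E had 685 ± 32.4 normalized counts in controls and 82.4 ± 12.6 in knockdown, 12.03% of control, and MVP had 134 ± 14.5 and 22.2 ± 5.45, 16.6% of control. These genes were picked for their pattern, so their likeness is no test of it.

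Among the ring subunits the SMC and kleisin genes did not move together. RAD21, the kleisin that closes the ring (chromosome 8, 116845935 to 116874866, minus strand), had 4032, 4252, 4311 and 4166 normalized counts in controls and 3800, 3936, 3735 and 3988 in knockdown. The groups did not overlap but were close. RAD21 fell by 0.12 (SE 0.0334), from 4190 ± 121 to 3865 ± 117. Its opposite-strand neighbour UTP23, a ribosome assembly factor, shares 8.37% of the exon bases of RAD21 and had a log2 change of -0.11 (limma adjusted p = 0.197). UTP23 passed with library totals (-0.21, adjusted p = 0.00896) and without control replicate 1 (-0.17, adjusted p = 0.0491). SMC3 (chromosome 10, 110567691 to 110604636, plus strand), an ATPase arm of the ring, had 2400, 2561, 2625 and 2469 in controls and 3468, 3293, 3030 and 3372 in knockdown. All knockdown libraries were higher, and SMC3 rose by 0.39 (SE 0.0377). Its processed copy SMC3P1 was at 45.4 ± 7.91 and 60.3 ± 9.54, which is a small share of the SMC3 counts, and passed the test (0.40, limma adjusted p = 0.0192), a call lost under 7 of its 18 alternatives. SMC1A (chromosome X, 53374149 to 53422728, minus strand), the other ATPase arm, had 3308, 3437, 3238 and 3212 in controls and 3358, 3193, 3233 and 3419 in knockdown. The groups overlapped, and the log2 difference was 0.00085 (SE 0.0344, 95% interval -0.068 to 0.070). With library totals the SMC1A difference was -0.11, the same as the shift of the median of all genes. SMC1A then passed as a fall.

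Both STAG genes rose, STAG1 by more. STAG1 and STAG2 encode the alternative subunits that bind the ring and contact CTCF, and a cohesin complex holds only one of them. STAG1 (chromosome 3, 136336233 to 136752403, minus strand) had 293, 277, 258 and 261 normalized counts in controls and 613, 612, 579 and 611 in knockdown. The lowest knockdown library lay far above the highest control, and STAG1 rose by 1.15 (SE 0.0592, 95% interval 1.03 to 1.27), from 272 ± 16.3 to 604 ± 16.4, or 2.22-fold. Of all genes, 439 rose by more. STAG2 (chromosome X, 123960212 to 124422664, plus strand) had 2045, 2226, 2185 and 2124 in controls and 3036, 3233, 3018 and 3186 in knockdown. It rose by 0.54 (SE 0.0362), again with no overlap. Per 100 reads of STAG2 the controls held 14.3, 12.5, 11.8 and 12.3 reads of STAG1 and the knockdown libraries held 20.2, 18.9, 19.2 and 19.2. The ratio was thus 1.52 times higher in knockdown, 12.7 ± 1.11 against 19.4 ± 0.555, and STAG2 had the more reads in every library.

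The STAG1 exons overlap those of PCCB, a subunit of propionyl-CoA carboxylase on the opposite strand, over 1664 bases or 21.2% of the STAG1 exon bases. PCCB went the other way, from 1318 ± 25.7 to 1162 ± 18.2 normalized counts, and fell by 0.18 (limma adjusted p = 8.56e-05). Reads from the shared bases cannot be assigned without the strand setting. STAG2 shares 2.94% of its exon bases with TENM1, whose log2 change was 0.011.

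**Figure D2:**
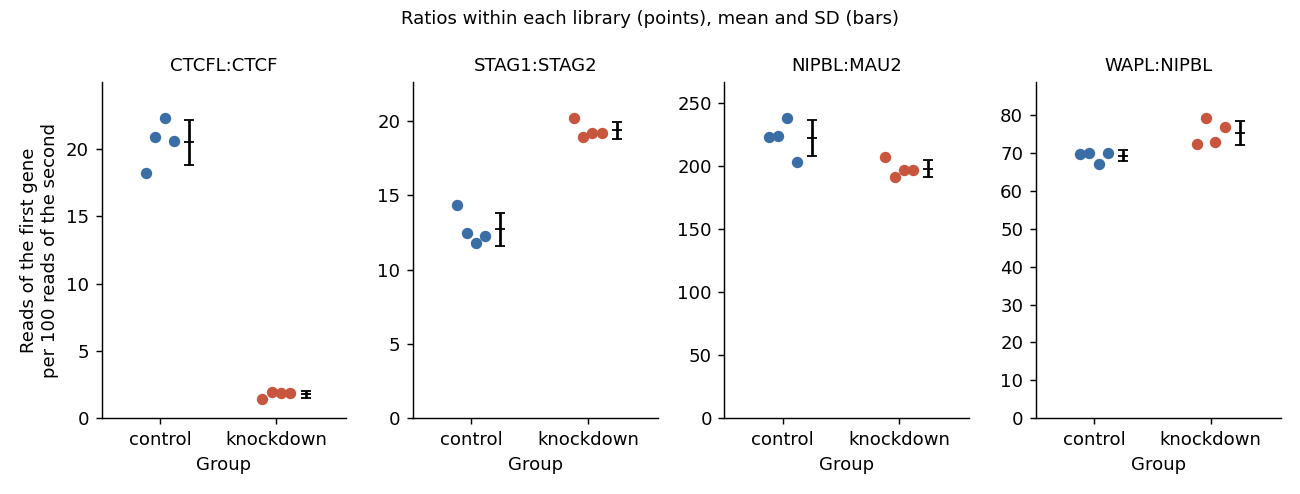
Reads of the first gene per 100 reads of the second within each library, for 4 gene pairs; points are libraries, and the bars give mean and SD of 4. CTCFL to CTCF went from 20.5 to 1.79 and STAG1 to STAG2 from 12.7 to 19.4, while the groups overlap for NIPBL to MAU2.

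The loader and release genes rose by less. NIPBL (chromosome 5, 36876759 to 37066413, plus strand), the large loader subunit that also drives loop extrusion, had 1718, 1749, 1712 and 1664 normalized counts in controls and 1904, 1903, 1810 and 1976 in knockdown. NIPBL rose by 0.15 (SE 0.0376), a call lost with library totals (0.041). MAU2 (chromosome 19, 19320681 to 19358755, plus strand), its partner, had 771, 781, 720 and 820 in controls and 919, 993, 921 and 1004 in knockdown. MAU2 rose by 0.31 (SE 0.0470); its neighbour SUGP1, which shares 1.47% of the MAU2 exon bases, rose by 0.45. WAPL (chromosome 10, 86435256 to 86521815, minus strand) had 1198, 1226, 1148 and 1166 in controls and 1380, 1506, 1321 and 1518 in knockdown, and rose by 0.27 (SE 0.0429). None of these 3 genes overlapped between the groups. Reads of NIPBL per 100 of MAU2 were 222 ± 14.3 in controls and 198 ± 6.51 in knockdown, with overlap, and reads of WAPL per 100 of NIPBL were 69.2 ± 1.45 and 75.3 ± 3.19, without.

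Transcripts named as divergent from the NIPBL and WAPL promoters moved opposite to their coding partners. NIPBL-DT had 382, 375, 310 and 356 normalized counts in controls and 226, 247, 231 and 210 in knockdown, and fell by 0.63 (limma adjusted p = 6.19e-11). It fell under all 19 alternatives. WAPL-DT had 57.2 ± 12.9 and 39.6 ± 8.08 and fell by 0.52 (limma adjusted p = 0.00569), a call lost without control replicate 1, the highest control, and without knockdown replicate 4.

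In all, 7 of the 10 genes rose, CTCFL and RAD21 fell and SMC1A did not pass, against the 64.7% of all genes that passed. For 9 of the 10 the groups did not overlap, against 56.7% of all genes. Nothing is read from these counts, since the same values chose the set. The median log2 change was 0.29 over the 10 and 0.0013 over all genes tested. With library totals 6 rose, 3 fell and the median was 0.18. Control libraries varied little, with coefficients of variation from 2.05% to 6.18% against a median of 4.66% over genes of at least 5 CPM.

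**Figure D3:**
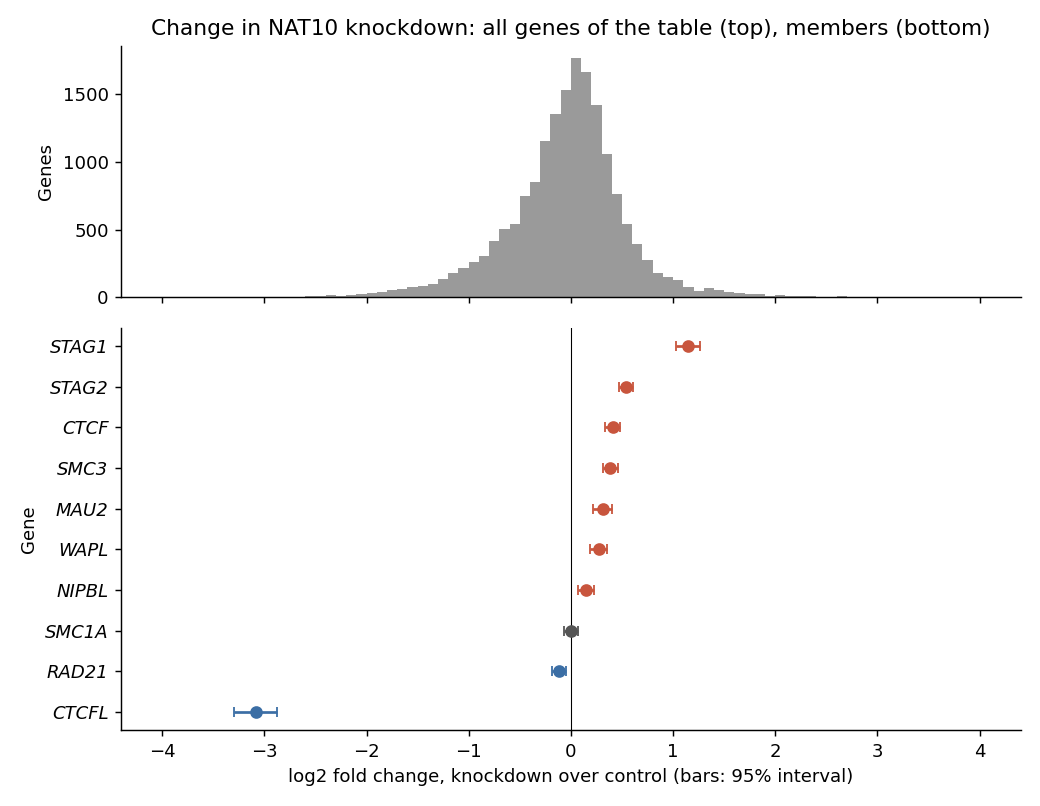
Distribution of log2 fold changes over all genes (top, genes beyond 4 on either side in the end bins) and log2 fold change with 95% interval of each of the 10 genes (bottom; red rose, blue fell, grey did not pass). CTCFL lies at -3.08 and STAG1 at 1.15, with the other 8 between -0.12 and 0.54.

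Levels between genes were compared per length, as CPM per kb of merged exons. In controls RAD21 was highest at 43.9 ± 1.47 (SD, n = 4), followed by SMC3 at 38.1 ± 1.69, SMC1A at 20.4 ± 0.598 and STAG2 at 16.99 ± 0.683. CTCF and WAPL, both at 10.6, overlapped, and NIPBL at 8.85 ± 0.185 and MAU2 at 4.50 ± 0.227 came next. CTCFL at 2.48 ± 0.164 and STAG1 at 2.25 ± 0.125 overlapped at the low end, and no other neighbours in the order did. The CTCFL level in controls was above that of 34.9% of 13796 coding genes, and the RAD21 level above that of 93.8%. With merged exons as the length, SMC3 came first in knockdown at 46.3 ± 2.50, before RAD21 at 37.5 ± 1.09. STAG2 at 22.9 ± 0.781 was above SMC1A at 18.9 ± 0.549. STAG1 reached 4.62 ± 0.113, close below MAU2 at 5.18 ± 0.242, and CTCFL was last at 0.267 ± 0.0362. No neighbours in that order overlapped. The order depended on the length used. With coding length RAD21 was first in knockdown at 123 and SMC3 was at 54.2, and SMC1A at 53.0 was above STAG2 at 48.6. With the longest coding transcript RAD21 was also first in knockdown, at 61.97 against 48.1 for SMC3, and STAG2 at 31.0 was above SMC1A at 19.98. In controls RAD21 was first, CTCFL ninth and STAG1 last with each of the 3 lengths, and genes in the middle changed places. In knockdown STAG1 was ninth and CTCFL last with each.

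**Figure D4:**
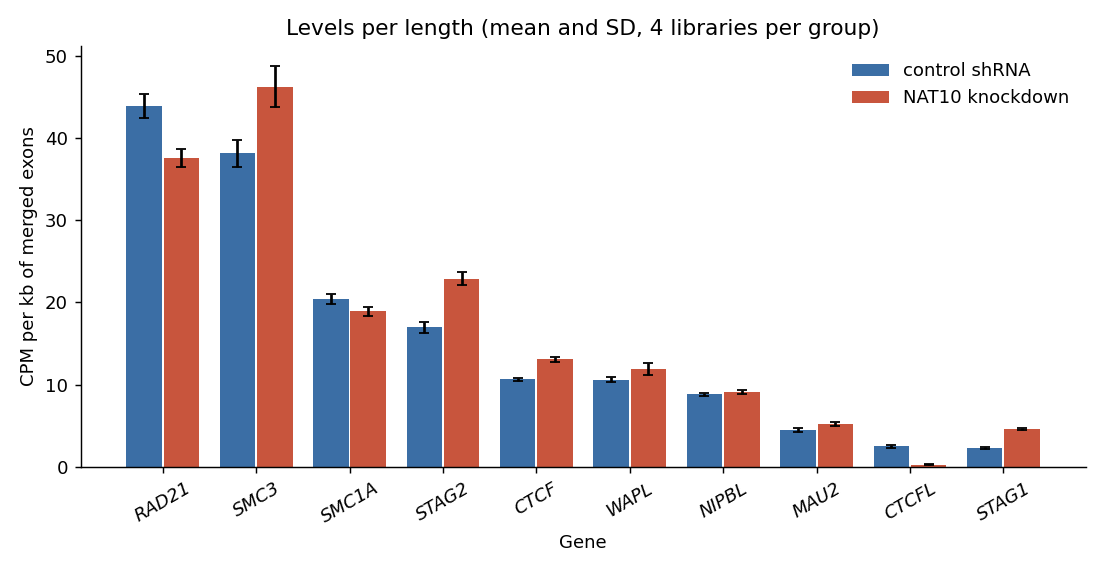
CPM per kb of merged exons for each gene, as mean and SD of 4 libraries per group. RAD21 (43.9) leads in controls and SMC3 (46.3) in knockdown, where RAD21 leads with the other 2 lengths tried, and CTCFL goes from 2.48 to 0.267.

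Related genes were counted in lists, to stand beside the 64.7% of all genes that passed, 32.3% higher and 32.4% lower. For each list the 3 genes with the smallest adjusted p among those of at least 5 CPM are named, and where 5 or fewer genes moved in a direction the others were named after their values were seen. Of 13 cohesin regulators 8 rose, 3 fell and 2 did not pass (84.6% passed), with a median log2 change of 0.15. PDS5A, a cohesin-bound partner of WAPL, rose by 0.30 (limma adjusted p = 2.56e-10), TIPIN of the fork protection complex by 0.54 (1.24e-08) and DSCC1 of a clamp loader needed for cohesion by 0.24 (1.06e-05). The 3 that fell were ESCO1, an acetyltransferase of SMC3, the helicase DDX11, and CHTF18, a partner of DSCC1. The DDX11 call was lost without control replicate 3 (adjusted p = 0.0587) and without knockdown replicate 2 (0.0715). The list split depended on the scaling, with 4 up and 5 down with library totals. Of 9 genes that protect or remove cohesin in mitosis, 0 rose and 5 fell (median -0.11), and 8 fell with library totals. The share that passed was 55.6%, below that of all genes. SGO2, a shugoshin, which is a protector of centromeric cohesin, fell by 0.68 (limma adjusted p = 1.63e-17), from 878 ± 36.0 to 549 ± 14.1 normalized counts. SGO1, the other shugoshin listed and named after its values were seen, did not pass. It had 274 ± 18.4 normalized counts in controls and 267 ± 13.2 in knockdown (log2 change -0.033, limma adjusted p = 0.698). PTTG1, the securin that holds separase, fell by 0.45 (0.000379) and PPP2R5A, a regulatory subunit of the phosphatase PP2A, by 0.16 (0.00346). The kinase genes PLK1 and HASPIN also fell, by 0.11 and 0.18. The call of HASPIN was lost under 7 of 19 alternatives.

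Of the meiotic cohesin subunits 2 were measured. STAG3, the germline counterpart of STAG1 and STAG2, went from 139 ± 7.38 to 89.0 ± 7.34 normalized counts and fell by 0.64 (limma adjusted p = 4.12e-07), opposite in direction to STAG1 and STAG2. REC8, the meiotic kleisin, rose by 0.21 (limma adjusted p = 0.000767), a call lost with library totals (0.098, adjusted p = 0.108). Of 49 other cancer-testis and germline genes listed 13 were measured, of which 6 fell, 2 rose and 5 did not pass. That is 61.5% passing, against 64.7% of all genes. The median log2 change was -0.48 (-0.59 with library totals). GAL3ST1 fell by 0.73 (limma adjusted p = 2.63e-10), PIWIL2 of the piRNA pathway by 0.53 (1.68e-07) and DMC1, the meiotic recombinase, by 0.48 (0.000119). TEX14 and TEX15 rose, and the TEX15 call was lost under 14 of 19 alternatives. TEX14, below 5 CPM, met the filter for inclusion only through the knockdown libraries, so its direction is not free of the filter. SYCP1, which did not pass, met the filter only through the controls. MAGEA4, below 5 CPM and named after its values were seen, fell from 95.04 ± 5.18 to 30.4 ± 11.02. Most listed genes were not analysed here. The table holds only genes with at least 10 reads in at least 4 libraries, and why each listed gene is absent was not tested.

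The other SMC complexes split evenly. Of 17 condensin and SMC5/6 genes measured 5 rose, 5 fell and 7 did not pass (median 0.023; 4 rose and 9 fell with library totals). SLF2, which brings SMC5/6 to chromatin, rose by 0.82 (limma adjusted p = 2.59e-19) and the condensin core SMC2 by 0.37 (1.26e-11), while NCAPD2 of condensin I fell by 0.45 (2.62e-17). The condensin genes NCAPH and NCAPH2 and the SMC5/6 gene EID3 also rose, and NSMCE1, NSMCE2, SMC4 and NCAPG2 also fell. The EID3 call was lost under 8 of 18 alternatives. Of 17 CTCF partners and architectural zinc-finger genes 12 rose and TOP2B alone fell (median 0.17; 6 rose and 3 fell with library totals). PATZ1, a zinc-finger protein, rose by 0.62 (limma adjusted p = 1.13e-20), from 1411 ± 18.4 to 2175 ± 40.2 normalized counts. GTF2I, a transcription factor that binds CTCF, rose by 0.51 (6.00e-15), and DDX5, an RNA helicase that binds CTCF, by 0.34 (1.33e-14). These counts stand beside the 32.3% of all genes that rose and the 32.4% that fell. The shares that passed were 58.8% for condensin and SMC5/6 and 76.5% for CTCF partners.

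**Figure D5:**
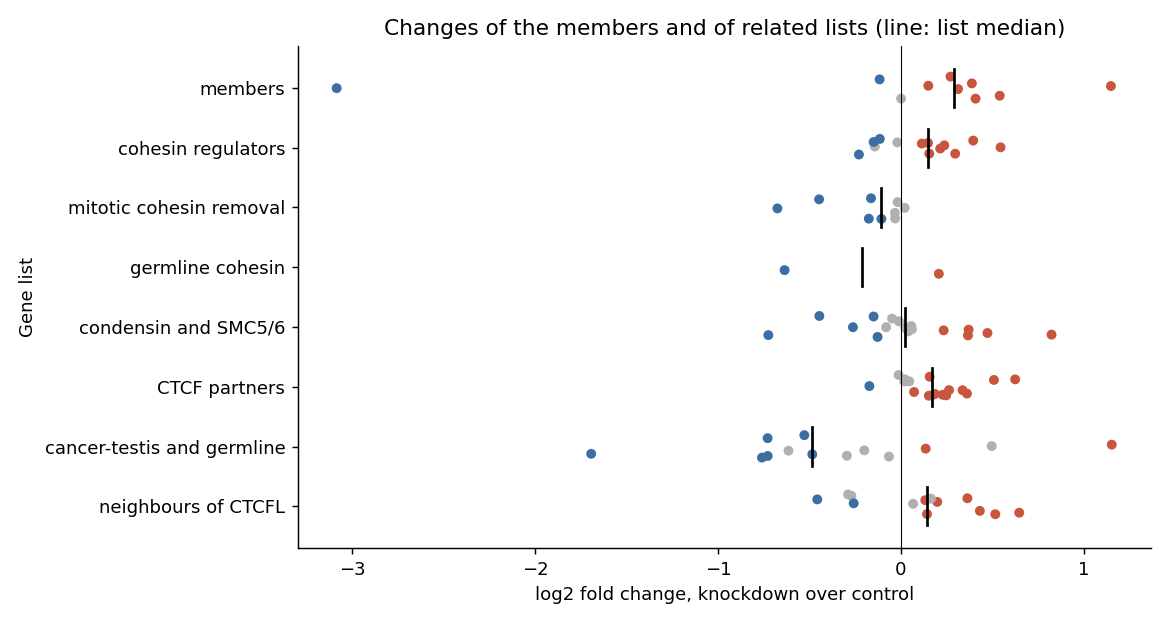
Log2 fold change of each measured gene of 8 sets (red rose, blue fell, grey did not pass); black lines are medians and vertical position within a row is spread for legibility. The median is 0.29 for the 10 members, -0.11 for mitotic cohesin removal and -0.48 for cancer-testis and germline genes.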

How the data were processed

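Poly(A) RNA of H1 cells was sequenced in 8 libraries, grouped by the sample titles into 4 control and 4 knockdown. Per the submitters' processing notes, which give no order, the tools were HISAT2 2.2.1, fastp 0.21.1, featureCounts 2.0.3, DESeq2 1.26.0 and SAMtools 1.12, on hg38. The deposited values are a signal, each gene's reads over the library's size factor (0.971 to 1.04): 100% of values were whole multiples of a step within 1e-06 of a read. Each gene reached 10 reads in 4 or more libraries. A count of 0 allows at most 0.193 CPM (3 reads, counting error only).

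limma 3.58.1 in R 4.3.3 (trend, robust) was run on log2(value + 1), a scale that understates changes of low genes, fitting group alone and adjusting (Benjamini-Hochberg) over all 17546 genes. On simulated data for this comparison it recovered 26, 33, 45 and 49 of 50 genes changed 1.25-, 1.5-, 2- and 4-fold, with 12 false calls. No other genes were changed in the simulation, while 64.7% of genes passed in the data. These figures may therefore not hold at that share of changed genes. Library pairs differed by a chi-square per gene of 1.78 to 2.49 inside a group and 27.5 to 28.5 across groups, so no library was counted as a repeat. Recovered reads were also tested with edgeR 4.0.16 (5651 genes up, 5735 down), DESeq2 1.42.0 and limma-voom. Positions and exon lengths came from GENCODE 29 (17225 IDs matched) and upstream windows from RefSeq. The members and lists were chosen with earlier results of these data known. Named were the 10 members, NAT10, 3 genes per list, 3 genes on either side of CTCFL, the 5 most like it, and genes overlapping or copied from members.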

Additional observations from a re-analysis of the deposited data

Results flagged for a closer look

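Of 154 groups of 4 libraries checked, 6 held 1 library far from the other 3, where chance gives about 5%. STAG1 was at 579 normalized counts in knockdown replicate 3 and at 611 to 613 in the others, a gap that is small beside the change of the gene. WAPL-DT was at 76.4 in control replicate 1 and at 48.1 to 52.7 in the others. SMC3P1 was at 46.2 in knockdown replicate 4 and at 63.3 to 66.0 in the others. RBM38-AS1 was at 20.3 in control replicate 1 and at 9.63 to 10.9 in the others. ENSG00000279531 was at 62.8 in knockdown replicate 1 and at 32.7 to 37.6 in the others. TWIST1 was at 41.7 in knockdown replicate 3 and at 32.7 to 34.0 in the others.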

How the results depend on the processing

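CTCFL and STAG1 kept their direction and call under all 19 alternatives, at -3.19 to -2.96 and 1.04 to 1.18 on the log2 scale. The other members that passed lost their call only when a change of at least 1.5-fold was also required, NIPBL also with library totals. SMC1A, which did not pass in the main fit, passed as a fall with library totals (-0.11). It also changed sign with TMM factors (-0.0025), edgeR (-0.0024), limma-voom (-0.0024) and 4 of the fits without 1 library. The fits without 1 library gave -0.016 to 0.021. RBM38-AS1 changed sign with library totals (-0.034) and in 3 fits without 1 library (all such fits -0.041 to 0.29), and TENM1 with library totals (-0.098) and in 3 fits without 1 library (all such fits -0.016 to 0.029). Counts moved by over 1.5 times as follows. With library totals 8 mitotic cohesin removal genes and 1 germline cohesin gene were called. With genes of at least 5 CPM 4 cancer-testis genes and 3 fibroblast markers were called. With the 1.5-fold requirement 4224 of all genes, 2 members, 0 cohesin regulators, 1 mitotic cohesin removal gene, 1 germline cohesin gene, 2 condensin and SMC5/6 genes, 1 CTCF partner, 5 cancer-testis genes, 1 neighbour of CTCFL, 2 pluripotent markers and 3 primordial germ cell markers were called.

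With the replicate number as a block 11217 genes were called in place of 11347, and 9 members in place of 9. Deviations of same-numbered libraries correlated at -0.133 to -0.0107, and those of differently numbered libraries at -0.161 to 0.163. No pairing by number was seen, but these values cannot show whether same-numbered libraries were prepared together. Among named genes the block ended the call of TEX15 (adjusted p = 0.0634) and no other. The length of the RefSeq protein was not run, for want of a protein table, and GENCODE coding length, the longest transcript and the ratios without each library were added after seeing the data. Genes of few reads have wide errors: HMGB1P1 and SYCP1 did not pass, which does not show that they did not differ.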
